A study of Macaca mulatta with 60 samples.

Results

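Transcript levels in the left atrium (LA) of rhesus monkey fetuses were compared between late gestation (LG) and early gestation (EG) in the unexposed animals. The comparison used the 3 LA arrays from LG controls, fetuses 7, 8 and 9, against the 3 from EG controls, fetuses 1, 2 and 3, which were chosen by their sample titles and are 6 of the 60 arrays of the series. Mothers of the control fetuses ate fruit carrying the ethanol vehicle once a day, over days 50 to 100 of gestation for EG and day 100 until term for LG, each with a tolerance of 2 days. All fetuses were female, no genetic alteration is given for any of them, and each array held RNA from 1 fetus. EG tissue was taken after caesarian section and LG tissue at necropsy after vaginal delivery, so gestational stage and mode of delivery cannot be told apart. The same stages were also sampled from fetuses whose mothers received bisphenol A (BPA, a building block of polycarbonate plastic with estrogen-like activity) in the same vehicle at 400 µg per kg body weight a day, 3 fetuses for each stage. These 6 LA arrays, and the arrays of the right atrium (RA), left ventricle (LV) and right ventricle (RV) from controls with the same sample numbers, taken here to name the same fetuses, served as further measurements of the same stage difference. The wider study asked what maternal BPA did to the fetal heart, and the control arrays show what the unexposed atrium did between the ends of both windows.

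The left atrium receives blood returning from the lungs, but before birth most of its filling comes from the placenta through the foramen ovale. Heart muscle cells of the fetus still divide, and they largely stop dividing and grow by enlargement around birth. Over the same period the heart moves from glucose and lactate as its main fuels towards fatty acids. Atrial muscle is built on the alpha myosin heavy chain, which the gene Myh6 encodes.

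The label of heart muscle was checked against that gene, whose level cannot tell LA from RA or from a late ventricle. Myosin-6 (ENSMMUT00000020702) lay at log2 values of 14.34, 14.46 and 14.43 in the EG controls and 14.51, 14.64 and 14.48 in the LG controls, close to the top of the scale, where the highest value on any LA array was 15.97. The difference of 0.13 ± 0.14 (SE) was too small for the filter on variation. Array medians ran from 6.91 to 7.02. Each array was correlated with the other 11, and the median r ran from 0.958, in EG control fetus 3, to 0.974. EG control fetus 3 thus stood farthest from the rest, and the count of calls in controls is also given without it. Counts of shared direction and shared calls are not given without it. In bulk tissue a fall in a transcript from fewer cells of a type and one from less RNA per cell cannot be told apart.

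Of 26149 transcripts, 7903 varied enough over the 12 LA arrays to be tested, with an interquartile range of at least 0.5. A transcript was called at a Benjamini-Hochberg adjusted p of at most 0.05 in the limma fit and a difference of at least 1 on the log2 scale, which is a change of at least 2-fold. In LG controls 197 transcripts were called, 2.49% of those tested, with 66 higher (0.835%) and 131 lower (1.66%). The median difference was 1.76 among those that rose and −1.81 among those that fell, and 21 rose and 43 fell by 2 or more on the log2 scale. The transcripts that rose went from a median level of 7.02 in EG to 9.24 in LG, and those that fell went from 8.35 to 6.51. The nearest EG and LG fetuses were separated by a median of 1.03 among the called transcripts, and the groups did not overlap in any of the 197, against 20.3% of all transcripts tested. At the looser criteria of the study's methods, an unadjusted p of at most 0.01 with the same size, 536 transcripts passed (6.78%), 193 higher (2.44%) and 343 lower (4.34%).

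The count of calls fell by more than 1.5 times without any 1 of 5 fetuses. It was 25 without EG control fetus 3, 34 without LG control fetus 8, 36 without LG control fetus 7, 47 without EG control fetus 1 and 88 without LG control fetus 9. It was 134 without EG control fetus 2, of which 122 were among the 197. A fit on the 6 control arrays alone called 26. The share of calls that were higher, 33.5%, became 68.0% of 25 calls without EG control fetus 3 and 72.2% of 36 without LG control fetus 7. It was 57.7% in the fit on the 6 control arrays. The excess of falls was thus not seen in these fits, and the cause was not tested.

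Descriptions were used for 580 of the transcripts, nearly all taken from the study's lists of BPA-responsive transcripts, and 13 of the 197 called transcripts were among these. The study had listed 8 of the 13 for an effect of BPA in LA, a choice made with the same control arrays, so their size in controls is not independent of that choice. The other 5, which it listed for another chamber or named in its text, were Pdk4, Dehydrogenase/reductase SDR family member 7C, Centromere-associated protein E, M-phase inducer phosphatase 3 and Leucine-rich repeat-containing protein 7. The remaining 184 called transcripts are not described here. With no filter on variation 4 of the 13 were still called, Pdk4, Dehydrogenase/reductase SDR family member 7C, M-phase inducer phosphatase 3 and Contactin-6, and the other 9 had adjusted p-values from 0.0555 to 0.136. In a fit on the 6 control arrays alone 3 were still called, Pdk4, Contactin-6 and Leucine-rich repeat-containing protein 7, and the other 10 had adjusted p-values from 0.0675 to 0.152.

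Of the 3 transcripts in the list of cell division, 2 were called lower in the LG atrium, 66.7% against 1.66% of all transcripts tested. The median difference of the list was −1.62 against −0.02 over all transcripts tested. The lists here and below were chosen with earlier results of these data known, so their shares are descriptions and not tests. M-phase inducer phosphatase 3 activates the kinase that starts mitosis. Its values were 6.50, 6.61 and 6.81 in EG and 4.56, 5.00 and 5.20 in LG, with no overlap, a difference of −1.72 ± 0.33 (SE) and an adjusted p of 0.0224. Centromere-associated protein E, a motor protein that moves chromosomes to the spindle equator, read 6.21, 5.79 and 7.21 in EG and 4.47, 4.56 and 5.32 in LG. It fell by 1.62 ± 0.40 (adjusted p = 0.0442). The spindle checkpoint kinase TTK read 5.40, 5.12 and 5.54 in EG and 4.05, 4.30 and 5.38 in LG, where LG control fetus 9 reached the EG range, and its difference of −0.77 ± 0.42 did not pass (adjusted p = 0.404).

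Neither of these calls held with every fetus left out in turn, although each direction did. Without EG control fetus 3, which read highest for all 3 members, the adjusted p was 0.0857 for M-phase inducer phosphatase 3 and 0.171 for Centromere-associated protein E. Without LG control fetus 7 it was 0.0815 and 0.138 in the same order, and without LG control fetus 8 it was 0.0686 and 0.136. Without EG control fetus 1 it was 0.0546 for M-phase inducer phosphatase 3 and 0.0861 for Centromere-associated protein E, and without LG control fetus 9 it was 0.0521 for Centromere-associated protein E. The call of Centromere-associated protein E also ended with no filter on variation (0.0678), in the 6 control arrays alone (0.135), after further quantile normalization (0.0505) or median centring (0.0539) and with array weights (0.0889), and that of M-phase inducer phosphatase 3 ended in the 6 control arrays alone (0.0824).

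Among the 6 transcripts of fuel metabolism, of which 5 passed the filter, 1 was called higher (16.7%), against 0.252% of all 26149 transcripts and 0.835% of those tested. Pdk4 (ENSMMUT00000030108) encodes pyruvate dehydrogenase kinase isozyme 4, which blocks the entry of glucose carbon into the citric acid cycle and so spares glucose when fatty acids are burned. Its values were 7.55, 7.06 and 6.35 in EG controls and 8.96, 10.21 and 9.56 in LG controls. The lowest LG fetus stood above the highest EG fetus, and the mean rose by 2.59 ± 0.48, a 6.04-fold change (adjusted p = 0.0198). The call was lost without EG control fetus 3 (2.28, adjusted p = 0.086) or LG control fetus 8 (2.28, adjusted p = 0.0714). Fatty acid-binding protein, a carrier of fatty acids inside the cell, read 10.20, 10.60 and 12.69 in EG and 11.79, 11.88 and 11.25 in LG, and EG control fetus 3 exceeded all 3 LG fetuses (difference 0.48 ± 0.56, adjusted p = 0.774). Hexokinase-2, which traps glucose in the cell, differed by 0.24 ± 0.40 (adjusted p = 0.861). Glycogenin (Gyg1, ENSMMUT00000007773), the primer of glycogen synthesis, read 9.81, 9.43 and 9.43 in EG and 9.88, 10.31 and 9.90 in LG. The LG values of glycogenin were above the EG values, with a difference of 0.48 ± 0.21, but the transcript did not pass the filter on variation. An exact two-sided permutation test of 3 against 3 fetuses gave p = 0.1, the smallest it can give.

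Of the 6 transcripts of cardiac muscle and conduction, of which 3 passed the filter, 1 was called higher (16.7%), against the same 0.252% of all transcripts. Dehydrogenase/reductase SDR family member 7C, a protein of the sarcoplasmic reticulum in striated muscle, read 10.63, 11.18 and 9.84 in EG and 11.79, 12.28 and 12.29 in LG. All LG fetuses were above all EG fetuses, and the rise was 1.57 ± 0.37 (adjusted p = 0.0391). That call ended without EG control fetus 1 (adjusted p = 0.0899) or 3 (0.151), and without LG control fetus 7 (0.0815), 8 (0.119) or 9 (0.115). The receptor that carries the thyroid hormone signal, Thrb (ENSMMUT00000000096), read 8.41, 8.57 and 7.48 in EG and 8.72, 8.60 and 9.18 in LG. Its groups did not overlap, by a margin of only 0.03 between EG control fetus 2 and LG control fetus 8. The difference was 0.68 ± 0.30 (exact permutation p = 0.1), and the transcript did not pass the filter on variation. Potassium voltage-gated channel subfamily A member 5, which carries an atrial repolarizing current, differed by 0.40 ± 0.24 and was not tested either. A small conductance potassium channel gated by calcium, protein 2 of its family (0.13 ± 0.47, adjusted p = 0.938) and Bone morphogenetic protein 10, a growth factor of the developing heart (−0.21 ± 0.45, adjusted p = 0.898), had overlapping groups.

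**Figure D1:**
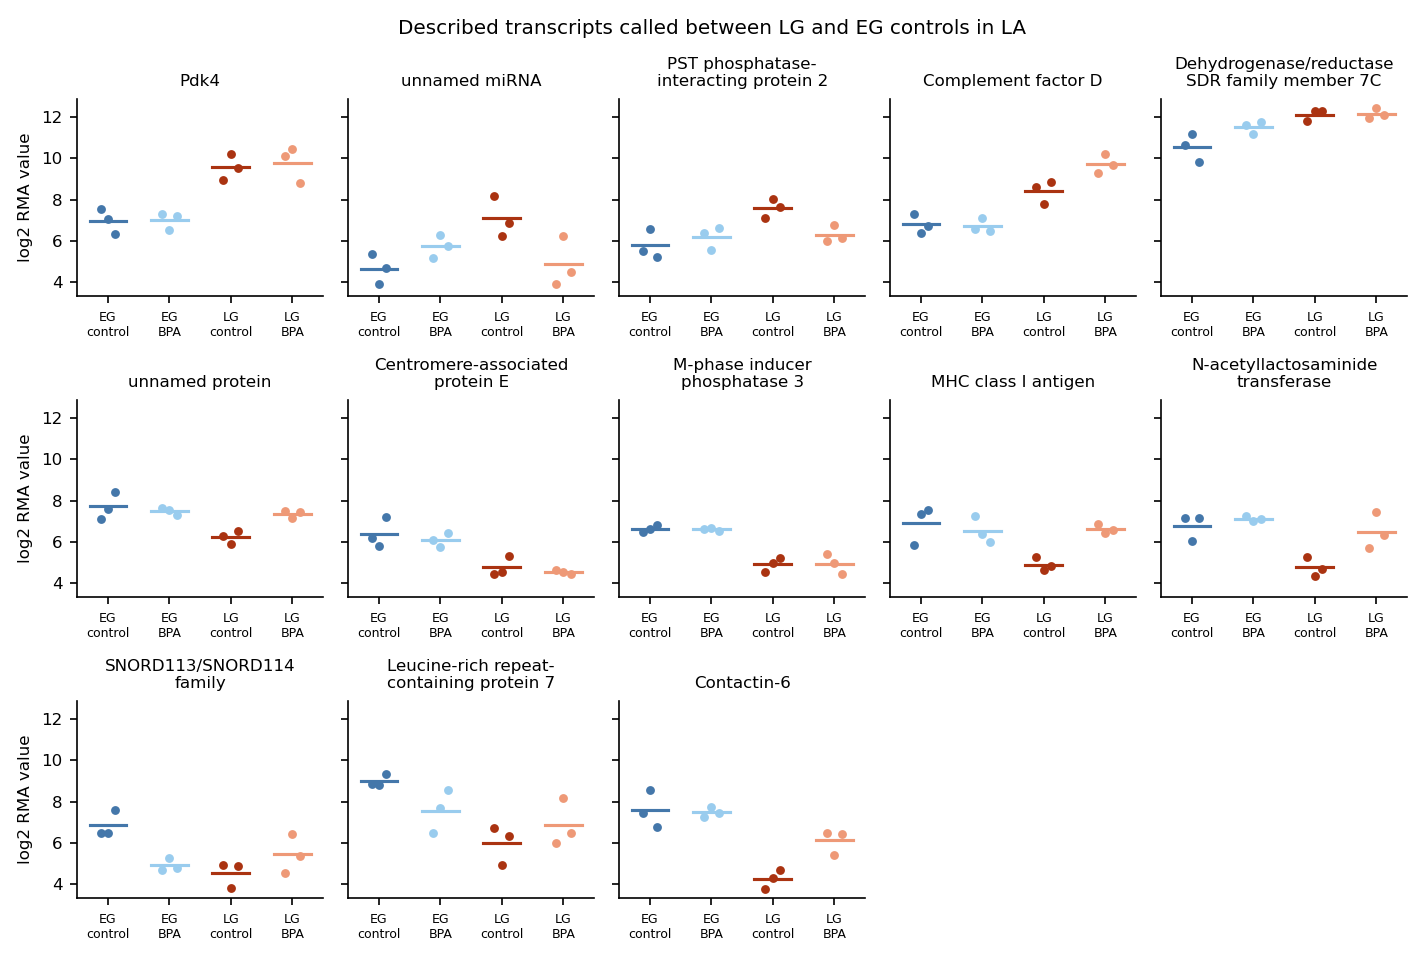
Log2 RMA values of the 13 described transcripts called between LG and EG controls in LA, with 1 point for each fetus and a line at the mean of the 3 fetuses of each group. The dark blue and dark red control groups do not overlap in any panel. BPA exposed groups in lighter colours repeat the step clearly for Pdk4, Complement factor D and the 2 cell division transcripts. They do not for the unnamed miRNA, PST phosphatase-interacting protein 2, MHC class I antigen or the SNORD113/SNORD114 family. The study had listed these last transcripts, and Complement factor D, for a BPA effect in LA with the same arrays. Their exposed groups are therefore not independent of that choice.

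Contactin-6 and Leucine-rich repeat-containing protein 7 had the deepest measured falls of the described transcripts that were called. Contactin-6, a cell adhesion molecule of neurons, read 7.44, 8.54 and 6.76 in EG controls and 3.75, 4.28 and 4.69 in LG controls, and all LG values lay under the highest 25th percentile of an LA array, 4.97. The lowest of them was beside the first percentile of the arrays, 3.72 to 3.74, so the size of the fall is limited by the floor of the scale. The measured fall was −3.34 ± 0.46, a 10.1-fold change (adjusted p = 0.00287), and it was called with each fetus left out in turn, with adjusted p-values up to 0.0238. Contactin-6 was one of the 8 that the study listed for LA. Leucine-rich repeat-containing protein 7, a scaffold protein of synapses and cell junctions, read 8.87, 8.83 and 9.33 in EG and 6.72, 4.93 and 6.32 in LG. It fell by 3.02 ± 0.61 (adjusted p = 0.0257), and the call ended without EG control fetus 1 (0.0613), EG control fetus 3 (0.106) or LG control fetus 8 (0.0789) and with no filter on variation (0.0639). The list of 10 neuron markers, to which Contactin-6 belongs, had no other member called, so 10% of it was called lower, against 0.501% of all transcripts and 1.66% of those tested, and 4 of the 10 passed the filter. Its median difference was −0.40, with 6 members lower and 4 higher in LG, the highest by 0.42. Tubulin beta-3 chain read 6.20, 6.16 and 6.34 in EG and 5.90, 6.05 and 4.95 in LG, Paired mesoderm homeobox protein 2B, a factor of autonomic neurons, read 5.11, 5.28 and 5.21 against 4.74, 4.86 and 4.34, and Secretogranin-3 read 5.45, 5.52 and 5.89 against 5.05, 4.71 and 5.35. These 3 had LG values below all EG values, with differences of −0.60, −0.55 and −0.58 that did not pass, and 20.3% of all transcripts tested had groups that did not overlap. The mean over the 10 markers ran from 5.37 to 5.49 in EG controls and from 4.82 to 5.06 in LG controls, and in the BPA exposed fetuses it ran from 5.39 to 5.45 in EG and from 5.07 to 5.83 in LG, where 5 of the 10 members were higher in LG and the median difference was 0.09. The median difference of the list was −0.31 in RA, 0.36 in LV and −0.01 in RV controls. Paired mesoderm homeobox protein 2B had, like Contactin-6, been listed for LA by the study. The part of the list's mean in the fall of Leucine-rich repeat-containing protein 7 was not tested.

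The other described transcripts that fell were all listed for LA by the study. N-acetyllactosaminide beta-1,6-N-acetylglucosaminyl-transferase, an enzyme that branches sugar chains at the cell surface, read 7.18, 6.03 and 7.15 in EG and 5.29, 4.33 and 4.67 in LG (−2.03 ± 0.46, adjusted p = 0.0354). MHC class I antigen, which presents peptides to T cells, read 5.86, 7.33 and 7.56 against 5.25, 4.62 and 4.83 (−2.02 ± 0.45, adjusted p = 0.0339). MHC class I genes form a family of near-identical copies in the macaque, so probes may read several of them. A protein-coding transcript without a name, ENSMMUT00000044475, read 7.11, 7.61 and 8.44 against 6.30, 5.90 and 6.55 (−1.47 ± 0.36, adjusted p = 0.0475). Each of these calls was lost with most single fetuses left out. The adjusted p rose to 0.136, 0.139 and 0.177 without EG control fetus 3, in the same order. For the branching enzyme it was also above the threshold without EG control fetus 1 (0.1) or LG control fetus 7 (0.0694), 8 (0.115) or 9 (0.0903). For MHC class I antigen it was so without EG control fetus 2 (0.0933) or LG control fetus 7 (0.0722), 8 (0.105) or 9 (0.0841). The unnamed protein lost its call without EG control fetus 1 (0.0557) or 2 (0.0928), and failed the filter on variation without any 1 of the LG controls.

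Of the 18 markers of white blood cells, 12 had higher and 6 lower means in LG controls. In that list 13 passed the filter, 2 were called higher (11.1% of the members, against 0.252% of all 26149 transcripts) and none was called lower. The mean over the 18 ran from 5.25 to 5.45 in EG controls and from 5.54 to 5.78 in LG controls, with a median member difference of 0.22. Complement factor D, a serine protease of the alternative complement pathway that fat cells also secrete, read 7.29, 6.37 and 6.75 in EG and 8.63, 7.80 and 8.86 in LG and rose by 1.63 ± 0.39 (adjusted p = 0.0413). Proline-serine-threonine phosphatase-interacting protein 2, a membrane-shaping protein of macrophages, read 5.52, 6.60 and 5.23 in EG and 7.09, 8.04 and 7.63 in LG and rose by 1.80 ± 0.43 (adjusted p = 0.0407). Both had been listed for LA by the study. Complement factor D lost its call without any 1 of the 6 fetuses (adjusted p from 0.0651 without EG control fetus 1 to 0.139 without LG control fetus 9). The macrophage protein kept it only without EG control fetus 2, and its adjusted p was 0.113 and 0.164 without EG control fetuses 1 and 3 and 0.0722, 0.143 and 0.102 without LG control fetuses 7, 8 and 9. Other members named here did not pass. Cathepsin S, a protease of antigen-presenting cells, differed by 0.90 ± 0.37 (adjusted p = 0.247), Lymphocyte cytosolic protein 2 by 0.49 ± 0.38 (0.607), and CAMPATH-1 antigen, a surface protein of lymphocytes, by −0.56 ± 0.69 (0.792). T-cell leukemia/lymphoma protein 1A lay between 3.92 and 4.03 in all 6 fetuses, near the floor of the scale.

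Markers of erythroid cells and smooth muscle were not called in controls. Erythroid 5-aminolevulinate synthase, the first enzyme of heme synthesis in red cell precursors, read 8.01, 8.92 and 9.93 in EG and 6.49, 7.80 and 8.89 in LG, with overlapping groups (−1.23 ± 0.84, adjusted p = 0.539). Krueppel-like factor 1, which switches on globin genes, read 5.62, 5.55 and 5.26 against 4.84, 4.73 and 4.91 (−0.65 ± 0.50, adjusted p = 0.609). The mean of both ran from 6.81 to 7.59 in EG controls and from 5.66 to 6.90 in LG controls. Myosin-11, the myosin of smooth muscle, read 6.87, 7.79 and 9.52 in EG and 9.40, 7.93 and 8.05 in LG (0.40 ± 0.60, adjusted p = 0.842). EG control fetus 3 had the highest EG value of Myosin-11, erythroid 5-aminolevulinate synthase and CAMPATH-1 antigen. In the BPA exposed fetuses Myosin-11 was called higher, at 6.93, 5.43 and 6.04 in EG and 9.40, 8.87 and 9.53 in LG (3.13 ± 0.60, adjusted p = 0.0174). Both erythroid markers had differences of the opposite sign there, 1.65 ± 0.84 and 0.81 ± 0.50, which did not pass (adjusted p = 0.314 and 0.423), and LG exposed fetus 10 read highest for both, at 12.91 and 6.87. Myosin-11 and erythroid 5-aminolevulinate synthase had been listed for LA by the study.

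**Figure D2:**
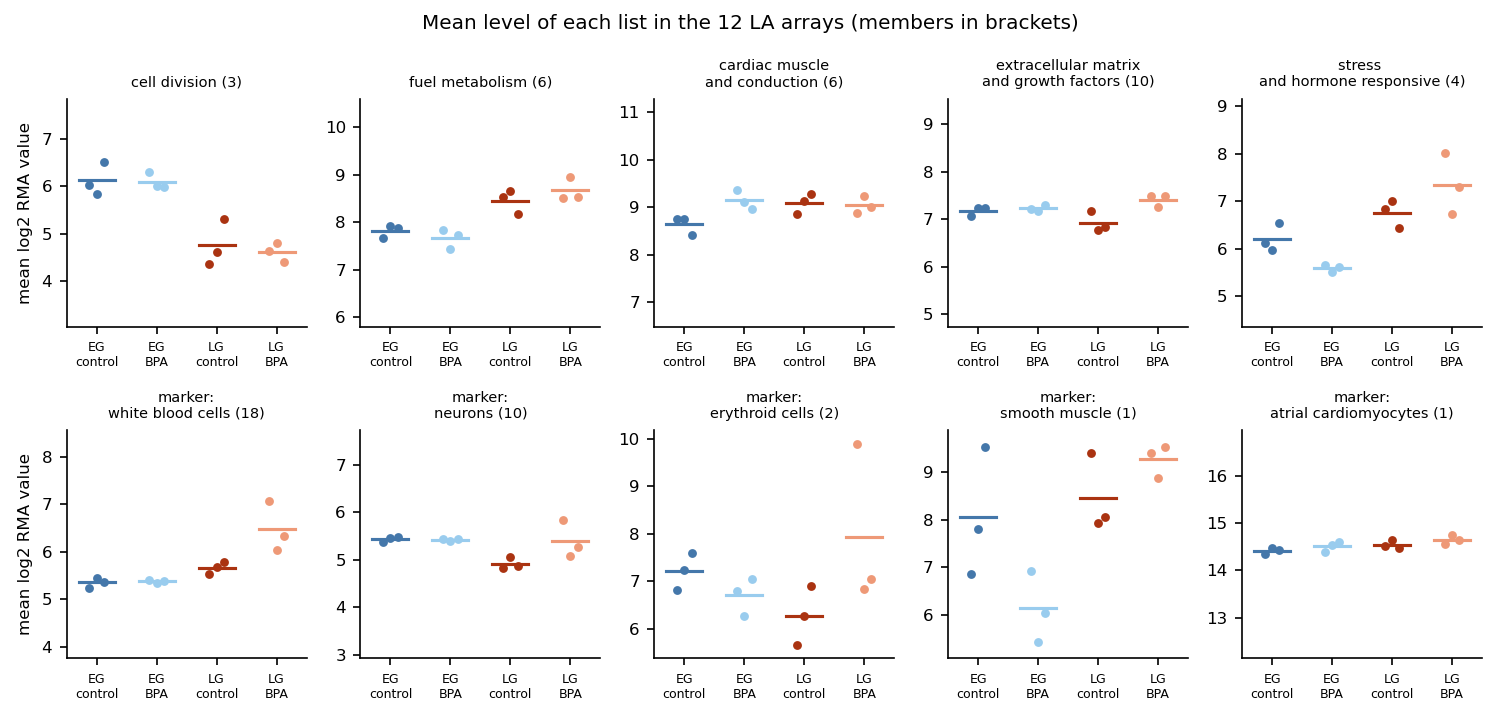
Mean log2 RMA value of each list in the 12 LA arrays, with 1 point for each fetus, a line at the mean of the 3 fetuses of each group, the number of members in brackets and a vertical axis of equal span in every panel. The mean of the 3 cell division members lies between 5.84 and 6.52 in EG and between 4.36 and 5.30 in LG controls, and no test was run on these means. Myosin-11, the only smooth muscle member, had been chosen for a BPA effect in LA, as had 11 of 18 white blood cell, 1 of 2 erythroid, 2 of 10 neuron, 3 of 10 matrix, 2 of 6 fuel metabolism, 1 of 6 cardiac and 1 of 4 stress members, so these panels do not compare exposed with control fetuses independently of that choice.

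Extracellular matrix transcripts and growth factors gave no call among 10 members, of which 5 passed the filter, against 0.753% of all transcripts, so the list did not stand apart from that share. Platelet-derived growth factor C, Collagen alpha-1(XIX) chain and Connective tissue growth factor had been listed for LA by the study. Platelet-derived growth factor C, a growth factor of connective tissue cells, read 7.30, 7.78 and 6.83 in EG and 6.76, 4.94 and 6.05 in LG. It met the unadjusted criteria (−1.39 ± 0.43) but not the adjusted one (adjusted p = 0.113). ADAM 12 (ENSMMUT00000013487), a metalloprotease that sheds growth factors from the cell surface, read 7.92, 7.91 and 9.28 in EG and 7.47, 7.74 and 7.15 in LG. All 3 LG values were lower, the closest by 0.17, and the difference of −0.91 ± 0.38 had an adjusted p of 0.253 (exact permutation p = 0.1). Without EG control fetus 3 that difference was −0.46. Collagen alpha-1(XIX) chain, a collagen of basement membranes, read 4.98, 6.42 and 5.57 against 4.94, 4.29 and 4.41 (−1.11 ± 0.41, adjusted p = 0.189). Connective tissue growth factor was high throughout, between 10.42 and 12.03, with overlapping groups (−0.63 ± 0.38, adjusted p = 0.455). None of the 4 transcripts of stress and hormone response was called either, against the same share. Nuclear receptor subfamily 4 group A member 1, an immediate early gene, read 7.01, 6.69 and 5.79 in EG and 8.60, 8.76 and 6.47 in LG, where LG control fetus 9 stayed in the EG range (1.44 ± 0.71, adjusted p = 0.339).

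Among the described transcripts, 2 of 295 small and non-coding RNAs were called (0.678%) and 11 of 285 proteins (3.86%), against 0.753% of all 26149 transcripts. The filter was passed by 239 (81.0%) and 119 (41.8%) of them, against 30.2% of all transcripts. Both shares include transcripts that the study had listed for LA with the same control arrays. Among the 453 described transcripts not listed for LA, 1.1% were called. The median SD within a group was 0.607 for the small and non-coding RNAs and 0.366 for the proteins, and the former were read by 1 or 2 probes against 6 for a protein transcript. A microRNA transcript without a name, ENSMMUT00000050906, read 5.35, 3.91 and 4.71 in EG and 8.16, 6.25 and 6.89 in LG and was called higher (2.44 ± 0.61, adjusted p = 0.0477). A transcript of the SNORD113/SNORD114 family, box C/D small nucleolar RNAs that are encoded in an imprinted cluster, read 6.48, 6.49 and 7.60 in EG and 4.91, 3.80 and 4.88 in LG and was called lower (−2.32 ± 0.49, adjusted p = 0.0296). Both had been listed for LA. The unnamed microRNA was not called without any 1 of the 6 fetuses, with adjusted p-values from 0.0654 (without EG control fetus 1) to 0.159 (without LG control fetus 7). The small nucleolar RNA lost its call without EG control fetus 1 (0.0563) or 3 (0.117) and without LG control fetus 7 (0.0694) or 8 (0.096). None of the 28 known microRNAs was called by limma, and 1 rose and 1 fell at the unadjusted criteria. The precursor of mml-mir-205 read 4.68, 5.31 and 4.03 in EG and 5.78, 4.24 and 4.47 in LG (0.16 ± 0.49, adjusted p = 0.932), and that of mml-mir-224 read 5.20, 3.72 and 4.28 against 4.61, 4.53 and 3.78 (−0.10 ± 0.45, adjusted p = 0.956). Both lay low on the scale, and their groups overlapped throughout.

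The steepest changes belonged to transcripts without a description. ENSMMUT00000016026 read 9.37, 9.84 and 10.10 in the EG controls and 5.35, 4.85 and 6.10 in the LG controls. The nearest EG and LG fetuses were 3.27 apart, the widest gap among the called transcripts, and the fall of −4.33 ± 0.39 was a 20.2-fold change (adjusted p = 0.000104). ENSMMUT00000028038 read 7.76, 8.03 and 9.85 in EG and 4.52, 5.76 and 4.97 in LG (−3.46 ± 0.55, adjusted p = 0.00891). In the other direction, ENSMMUT00000007785 read 4.58, 4.50 and 3.90 in EG and 8.72, 7.70 and 7.91 in LG (3.78 ± 0.69, adjusted p = 0.0198), so it went from the floor of the scale to above the array medians. ENSMMUT00000015692 read 5.40, 4.97 and 5.32 in EG and 8.51, 10.67 and 7.49 in LG (3.66 ± 0.61, adjusted p = 0.0132). Both falls and the second of these rises were called with each fetus left out in turn. ENSMMUT00000007785 lost its call without EG control fetus 3 (adjusted p = 0.0857) or LG control fetus 7 (0.0694).

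The same stage difference was measured again in 6 other fetuses, those exposed to BPA. Their difference was taken between other arrays than the control difference, but all 12 arrays shared 1 slide, 1 filter on variation and 1 estimate of the variance. Among the 197 transcripts called in controls, 193 differed in the same direction in the BPA exposed LA, 98.0% against 61.1% of all transcripts tested. The difference in the exposed fetuses was at least 1 in the same direction for 150 of the 197, with a median of 1.61 for the 66 and −1.64 for the 131. The BPA exposed LA gave 235 calls (2.97% of those tested), 109 higher (1.38%) and 126 lower (1.59%), and 102 transcripts were called in both, 51.8% of the control calls and 43.4% of the calls in exposed fetuses. Each exposed fetus read on its own stage's side. The median level of the 66 transcripts was 7.31, 7.10 and 6.93 in the 3 EG exposed fetuses and 9.11, 9.25 and 8.90 in the 3 LG exposed fetuses, and that of the 131 was 8.29, 8.28 and 8.18 against 6.98, 6.55 and 6.45. The count of 235 was also sensitive to single fetuses, falling to 24 without LG exposed fetus 12, 25 without EG exposed fetus 4, 30 without EG exposed fetus 5, 61 without EG exposed fetus 6, and 130 and 148 without LG exposed fetuses 11 and 10.

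**Figure D3:**
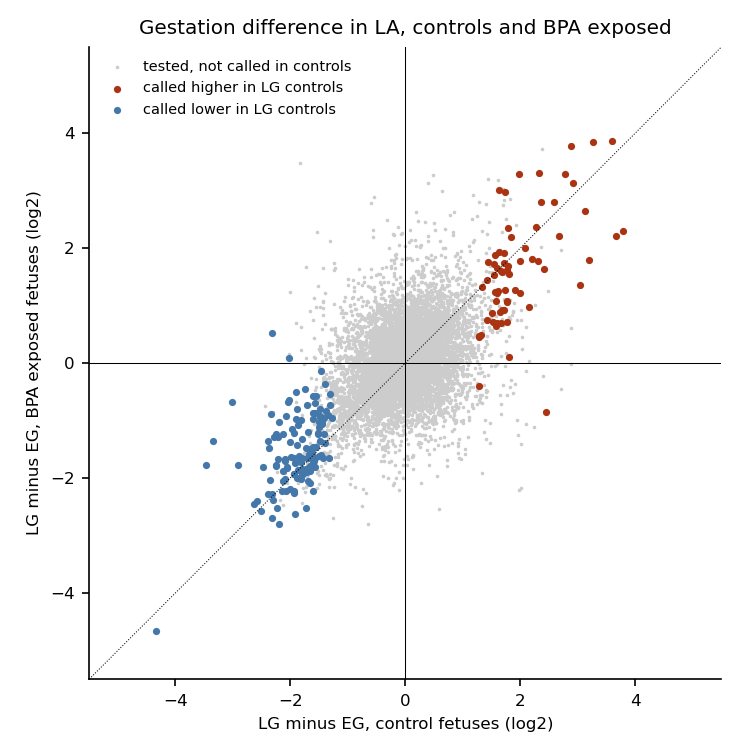
LG minus EG difference in LA on the log2 scale for each of the 7903 transcripts tested, with control fetuses on the horizontal and BPA exposed fetuses on the vertical axis and a dotted line of equal differences. The 66 transcripts called higher and 131 called lower in controls lie in the quadrant of the same direction for 193 of 197, with ENSMMUT00000016026 as the single point at the bottom left.

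Of the 13 described transcripts 10 differed in the same direction in the exposed fetuses, where 98.0% of the 197 and 61.1% of all transcripts tested did so. Among the 5 that the study had not listed for LA it was 5, of which 3 were called, near the 51.8% called among the 197. Pdk4 read 7.30, 6.52 and 7.19 in EG and 10.12, 10.46 and 8.82 in LG exposed fetuses, a rise of 2.80 ± 0.48 (adjusted p = 0.0109). Both cell division transcripts fell again, M-phase inducer phosphatase 3 by 1.66 ± 0.33 (adjusted p = 0.0193) and Centromere-associated protein E by 1.56 ± 0.40 (adjusted p = 0.0479). Dehydrogenase/reductase SDR family member 7C read 11.61, 11.20 and 11.76 in EG and 11.97, 12.45 and 12.09 in LG exposed fetuses, with a difference of 0.65 ± 0.37 (adjusted p = 0.381). Leucine-rich repeat-containing protein 7 had overlapping exposed groups and a difference of −0.68 ± 0.61 (adjusted p = 0.61).

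The 8 listed for LA were chosen for a BPA effect with these arrays. Their agreement between exposed and control fetuses is therefore not independent of that choice. Of the 8, 5 kept their direction, below the 98.0% of the 197 control calls and near the 61.1% of all transcripts tested. Only 1 was called, below the 51.8% of the 197, where 2.97% of all transcripts tested were called. This was Complement factor D, at 6.57, 7.09 and 6.48 in EG and 9.27, 10.21 and 9.70 in LG exposed fetuses (3.02 ± 0.39, adjusted p = 0.00104). Contactin-6 read 7.26, 7.74 and 7.44 against 6.49, 5.42 and 6.45 (−1.36 ± 0.46, adjusted p = 0.13), still without overlap. The unnamed microRNA (−0.84), MHC class I antigen (0.09) and the SNORD113/SNORD114 transcript (0.52) had differences of the opposite sign. The white blood cell markers had higher LG means for 16 of 18 members in exposed fetuses and 12 of 18 in controls, and their mean ran from 5.34 to 5.42 in EG and from 6.04 to 7.07 in LG exposed fetuses. Some members of that list had been chosen for a BPA effect in LA, 11 of the 18, so this contrast between exposed and control fetuses is a description.

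The difference between the stage effects was itself tested. By limma no transcript was called for the control difference minus the exposed difference (0% of 7903, smallest adjusted p 0.432), while 489 had an unadjusted p of at most 0.05 (6.19%) and 97 met the unadjusted criteria (1.23%). Without LG control fetus 9, 3 transcripts were called. Of the 197 transcripts, 19 had an unadjusted p of at most 0.05 for this difference.

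The other chambers of the control fetuses gave the stage difference in arrays normalized on their own, so differences and not levels were compared with LA. They carry the same 6 sample numbers as the LA arrays and are not taken as an independent sample of fetuses. In RA, 187 transcripts were called (2% of 9329 tested), and 110 of them were among the 197 of LA, 55.8% of the LA calls and 58.8% of the RA calls. In RA 194 of the 197 differed in the same direction (98.5%, against 66.9% of the transcripts tested in LA), with medians of 1.61 and −1.82. In RV, 238 were called (1.98% of 12031), 75 were shared, 38.1% of the LA calls and 31.5% of the RV calls, and 187 had the same direction (94.9%, against 57.8%). In LV none was called by limma among 17628 tested (0%), although 520 met the unadjusted criteria (2.95%) and 1865 had an unadjusted p of at most 0.05 (10.6%). In LV 183 of the 197 had the direction of LA (92.9%, against 60.9%). All of RA, LV, RV and the exposed LA had the direction of the LA controls for 173 of the 197 transcripts (87.8%), against 24.3% of the transcripts tested.

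Of the 13 described transcripts 12 had the LA direction in RA, 13 in LV and 11 in RV, and 5 were called in RA and 3 in RV. The unnamed microRNA ENSMMUT00000050906 went the other way in RA (−0.31) and RV (−0.69), and MHC class I antigen in RV (0.71). Pdk4 rose by 2.54 in RA (adjusted p = 0.0107) and by 3.53 in RV (adjusted p = 0.0356), with a difference of 3.47 in LV that did not pass after adjustment. Centromere-associated protein E fell by 1.81 in RA (adjusted p = 0.0143) and by 1.97 in RV (adjusted p = 0.0099), and its LV difference was −1.75. M-phase inducer phosphatase 3 fell by 1.88 in RA and by 2.04 in RV, and its LV difference was −0.80. Complement factor D rose by 3.08 in RA (adjusted p = 0.0190), with differences of 4.15 in LV and 2.48 in RV that did not pass. Leucine-rich repeat-containing protein 7 fell by 2.53 in RA (adjusted p = 0.0173), and its differences in LV and RV were −2.09 and −1.73. The study had listed it for an effect of BPA in RA, and both cell division transcripts and Myosin-6 for one in LV, with the control arrays of those chambers, so these values are not independent of that choice. Myosin-6, whose difference was 0.13 in LA and 0.21 in RA, had differences of 7.71 in LV and 3.50 in RV that did not pass after adjustment. Its LA values lay close to the top of the scale, which limits how far a rise could be read. Ventricular cDNA was not amplified, so chamber and preparation cannot be told apart in this contrast.

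**Figure D4:**
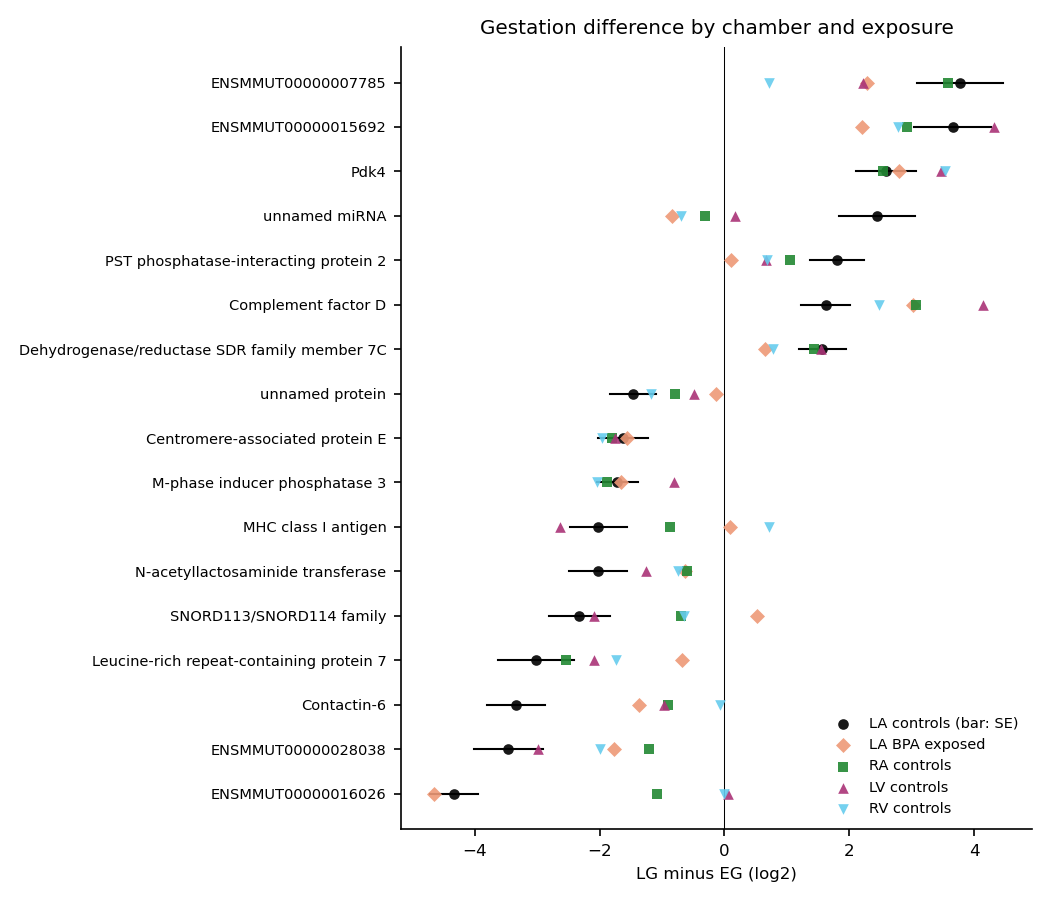
LG minus EG difference on the log2 scale for the 13 described called transcripts and the 4 steepest undescribed ones, with controls of LA (circles, bar ± SE), RA, LV and RV and BPA exposed LA as separate symbols. Most symbols of a row fall on 1 side of 0, while for ENSMMUT00000016026 the LV and RV symbols sit at 0 and the BPA exposed LA symbol sits beside the LA control.

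A test of the LA difference against that of another chamber was run on the transcripts tested in LA. Against RA, which had the same amplified cDNA preparation, 1 transcript was called, 0.0127% of those tested, and it was ENSMMUT00000016026. In RA it read 5.64, 6.11 and 5.30 in EG and 4.55, 4.59 and 4.65 in LG controls, a difference of −1.09, so the LA difference was larger in size by −3.25 ± 0.53 (adjusted p = 0.0344). With the fetus as a block the adjusted p was 0.112, and it was 0.151, 0.0672 and 0.743 without EG control fetuses 1, 2 and 3 and 0.402 and 0.552 without LG control fetuses 7 and 8. Against RV 3 transcripts were called (0.038%). ENSMMUT00000016026 read 5.14, 5.13 and 5.48 in EG and 5.35, 5.43 and 4.94 in LG in RV, a difference of −0.01, and the LA difference exceeded it by −4.32 ± 0.53 (adjusted p = 0.000312, and 0.0359 with the fetus as a block). In LV its values of 5.00, 6.80 and 3.31 in EG and 6.16, 3.60 and 5.54 in LG overlapped, and in the BPA exposed LA it read 9.63, 10.54 and 10.26 in EG and 5.65, 5.57 and 5.23 in LG (−4.66 ± 0.39, adjusted p = 3.95e-05). The high EG reading was thus present in all 6 EG left atria.

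Contactin-6 was the second transcript called against RV, at 3.75, 3.99 and 4.00 in EG and 3.92, 3.67 and 3.95 in LG there, with a difference of the differences of −3.27 ± 0.55 (adjusted p = 0.0183, and 0.0688 with the fetus as a block). All 6 RV values lay low on the scale, where a further fall could not be read. The difference was not called without EG control fetus 1 (0.136) or 2 (0.168) or without LG control fetus 7 (0.147) or 8 (0.129). The third, without a description, rose in RV from 5.19, 4.57 and 5.03 to 7.49, 8.44 and 7.87 and read 5.06, 5.16 and 5.63 in EG and 5.72, 5.68 and 5.63 in LG in LA, a difference of the differences of −2.61 ± 0.47 (adjusted p = 0.0338, and 0.0718 with the fetus as a block). It was not called without EG control fetus 1 (0.136), 2 (0.236) or 3 (0.174) or LG control fetus 7 (0.0569) or 8 (0.308). Without LG control fetus 9 it was called and the count against RV was 22, and without LG control fetus 8 or EG control fetus 1 or 2 the count was 1. Against LV no transcript was called by limma (0%, smallest adjusted p 0.285), and 507 had an unadjusted p of at most 0.05 (6.42%). Without LG control fetus 8, 2 were called. Only the atrial cDNA had been amplified, so chamber and preparation cannot be told apart in the comparisons with LV and RV.

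**Figure D5:**
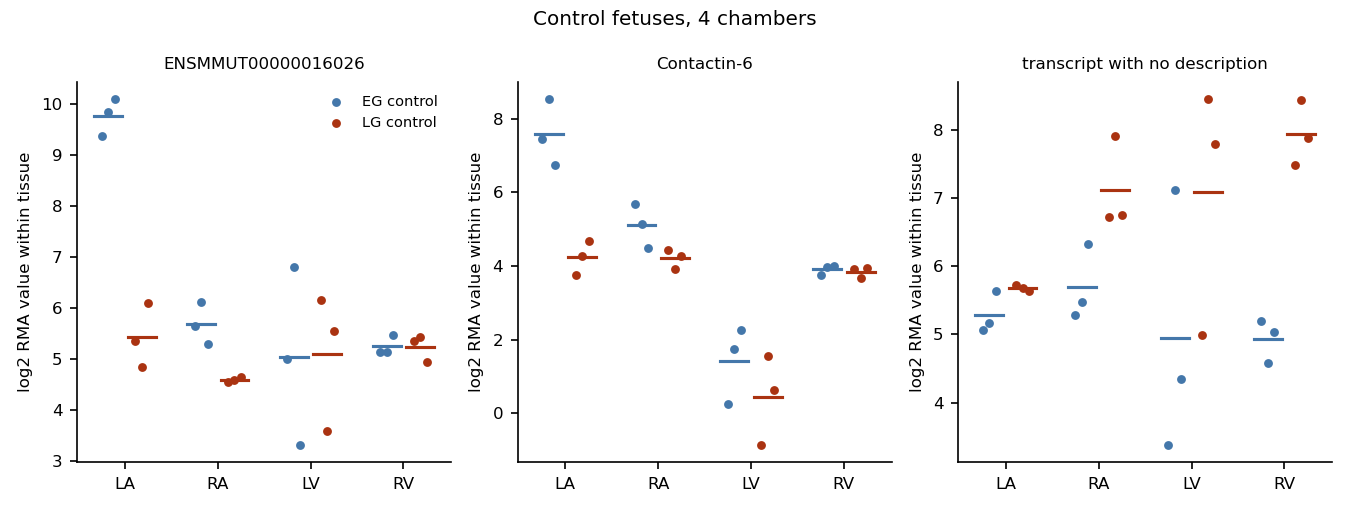
Log2 RMA values in the 4 chambers of the EG and LG control fetuses for the 3 transcripts whose stage difference in LA was called different from that in another chamber, with 1 point for each fetus and lines at group means. Each tissue was normalized on its own, so the step within a chamber is what can be compared, and for ENSMMUT00000016026 it is −4.33 in LA and lies between −1.09 and 0.06 in the other chambers.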

How the data were processed

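LA, RA, LV and RV of 12 female fetuses were hybridized to custom 60-mer NimbleGen arrays designed on Mmul_1, with 12 arrays on 1 slide for each tissue. Robust multi-array averaging (background correction, quantile normalization, median polish) had been run by the authors within each tissue, and the log2 output they deposited is what was used here, so levels are comparable within LA only. Versions of those tools are not given in the sources used here. Scanner intensities were not used here. Precision is limited by the number of arrays. LA and RA cDNA was amplified by PCR from little RNA, and what that did to differences was not tested.

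Transcripts with an interquartile range under 0.5 over the 12 LA arrays were removed, 18246 of 26149, as the study did. Means of the 4 LA groups were fitted by limma 3.58.1 under R 4.3.3 with its default empirical Bayes step, and Benjamini-Hochberg adjustment ran over all 7903 transcripts tested. A call needed an adjusted p of at most 0.05 and a log2 difference of at least 1, and the study's unadjusted criteria are given beside it. Differences between chambers were fitted on 24 arrays with 8 group means. The labels give the tissues the same sample ids, and the methods take all 4 chambers from the fetuses, so an id was taken to name 1 fetus, which neither states outright. The deviations of arrays with the same id had a median correlation of 0.231 for LA and RA, 0.101 for LA and LV and 0.114 for LA and RV, with 11, 6 and 8 of 12 ids above 0.1, against −0.021, −0.011 and −0.014 between ids, and the fit with the fetus as a block was an alternative. Exact two-sided permutation tests of 3 against 3 fetuses cannot go below p = 0.1.

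Names came from the descriptions in the study's tables, rebuilt to full identifiers, for 580 transcripts. A transcript whose descriptions differ between tables was not named, 2 identifiers were not analysed here, and 1 item is not reported here. Named with values were the genes the study gives by symbol, described transcripts that were called, markers and called members of the lists, and the 2 largest undescribed rises and falls, with other list members as examples. The members and the lists were chosen with earlier results of these data known. The alternatives were other filters, only the control arrays, trend and robust prior variance, further quantile normalization, median centring, array weights (statmod 1.5.0), other call rules and each fetus left out. The fit was tested on simulated data. Figures were drawn with matplotlib 3.10.9.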

Additional observations from a re-analysis of the deposited data

Results flagged for a closer look

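For 3 transcripts the stage difference in LA controls differed from that in another chamber by a test of the difference itself. ENSMMUT00000016026 fell in LA by 4.33 and the LA minus RA difference was −3.25 (adjusted p = 0.0344), and the LA minus RV difference was −4.32 (adjusted p = 0.000312). With the fetus as a block, since the chambers carry the same sample numbers, the first was not called (0.112) and the second was (0.0359). Contactin-6 had an LA minus RV difference of −3.27 (adjusted p = 0.0183, and 0.0688 with the block), and its 6 RV values, from 3.67 to 4.00, lay where a further fall could not be read. A transcript without a description had an LA minus RV difference of −2.61 (adjusted p = 0.0338, and 0.0718 with the block) with a difference of 3.00 in RV and LA values between 5.06 and 5.72. The comparison with RV cannot be told apart from the difference in cDNA preparation.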

How the results depend on the processing

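The count of called transcripts in LA controls was 197, and it was 169 with no filter, 201 at an interquartile range of at least 1, 255 with trend and robust prior variance, 185 after further quantile normalization, 179 after median centring, 222 without low means and 183 with array weights. It moved to 26 with only the 6 control arrays, to 536 under the unadjusted criteria, and to between 25 and 134 with a control fetus left out. Of the 197, 139 to 195 were also called under the first 7 of these, and 24 in the 6 arrays alone. The share that was higher was 43.7% with array weights and 57.7% in the 6 arrays. In the BPA exposed LA the count was 578 under the unadjusted criteria and between 24 and 148 with a fetus left out. The control minus exposed difference gave 97 under the unadjusted criteria and between 0 and 3 with a fetus left out.

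With the fetus as a replicate block, which pairs the chambers with 1 sample number, the LA minus RA count was 0, the LA minus LV count 0 and the LA minus RV count 1. Under the unadjusted criteria they were 43, 116 and 176, and with a fetus left out they ran from 0 to 1, from 0 to 2 and from 1 to 22. The described called transcripts, the 4 largest undescribed changes and the genes and microRNAs given by symbol were followed through the alternatives, and no direction reversed among those whose difference exceeded its SE. Thrb, Gyg1 and Myosin-6 had a value with no filter only, and other list members were not rerun. Of the 13 described calls, 9 were lost with no filter, 10 in the 6 arrays, 2 after further quantile normalization, 2 after median centring and 4 with array weights.

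Limits: 3 fetuses a stage, a single slide, amplified cDNA and stage confounded with delivery mode bound these results. The cause of the drop in calls without single fetuses was not tested. Low values lie near the floor of the scale, and background cannot be set against them without scanner intensities.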
